A study of Homo sapiens with 36 samples.

Results

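C4-2 cells that had grown beside MG63 cells were compared with C4-2 cells that had grown alone. C4-2 is a human prostate cancer (PCa) cell line derived from LNCaP that keeps the androgen receptor and prostate-specific antigen, and the sample labels class it as osteoblastic PCa. MG63, a human osteosarcoma line, served as the osteoblast-like (OB-like) cell. The libraries were chosen by their labels for cell line and culture, which gave 5 of the 36 libraries of the series: 3 mono-cultures of C4-2 and 2 co-cultures of C4-2 with MG63 cells. Neither group received RANKL, the osteoclast-inducing cytokine. A further 2 mono-cultures of C4-2 that received 50 ng/mL RANKL served as a second control. In the co-culture, the partner cells sat in a neighboring chamber behind a porous filter, so that soluble factors and small particles could pass while the cells stayed apart, and the RNA of C4-2 was collected on day 5. The whole study used 4 PCa lines, with C4-2 and C4-2B as osteoblastic lines and DU145 and 22Rv1 as osteolytic lines, in mono-culture or with MG63 cells or, under RANKL, alone or with a macrophage line. Each group is 1 established line without clones or donors, and the labels number the replicates without saying whether they were separate cultures, so that p-values measure the spread between these libraries, which may be technical.

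Osteoblasts and PCa cells exchange secreted signals in bone. Inflammatory cytokines act on epithelial cells through NF-kB, a dimeric transcription factor that is released when its inhibitor is degraded and that then induces its own inhibitors along with chemokines and survival genes. Together with STAT3 and C/EBP factors it drives the acute-phase response, in which cells secrete proteins that bind iron, inhibit proteases or opsonize particles. Interferons induce antiviral genes and the machinery that loads peptides on MHC class I.

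The 3 mono-cultures held 27738951 to 33582290 counts, the 2 co-cultures held 14171287 and 15397563, and the 2 mono-cultures with RANKL held 10869447 and 13373083. The mono-cultures were therefore 2.09 times as deep as the co-cultures on average. The level of a gene is its count per 1000000 counts of that library (CPM), and 3 counts, taken as the detection limit, correspond to 0.0893 to 0.108 CPM in the mono-cultures and 0.195 to 0.212 CPM in the co-cultures. These limits cover counting error only. Across the 13437 genes tested, Pearson's r of log2(CPM + 1) was 0.996 to 0.997 between mono-cultures, 0.994 between the 2 co-cultures and 0.987 to 0.988 between a mono-culture and a co-culture, which describes the libraries and tests nothing. The mono-cultures with RANKL resembled the co-cultures in depth but differ from the other mono-cultures in RANKL as well as in depth, which cannot be told apart. They share the co-cultures with the first comparison, so the counts of each gene list against both controls are given side by side. In bulk RNA, a larger share of cells with a transcript and more transcript per cell cannot be told apart.

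Markers of prostate luminal cells were present in all libraries. Their 12 genes summed to 8399 to 8697 CPM in the mono-cultures, 7063 to 7223 CPM in the co-cultures and 7076 to 7177 CPM with RANKL. KLK3, the gene of prostate-specific antigen, lay at 4603 to 4759 CPM in the mono-cultures and at 3632 and 3583 CPM in the co-cultures. The 18 markers of mesenchymal and OB-like cells summed to 690.9 to 760.9 CPM in mono-culture, 1480 to 1593 CPM in co-culture and 979.5 to 1056 CPM with RANKL. FN1, which encodes fibronectin and which C4-2 also expressed alone, carried nearly all of this difference. It lay at 575, 506.5 and 545 CPM in mono-culture, at 1401 and 1310 CPM in co-culture and at 853 and 790 CPM with RANKL. Both co-cultures lay above all 3 mono-cultures in CPM for 5 of the 18 markers (FN1, VIM, RUNX2, FBN1 and COL3A1) and below them for 5 (TAGLN, LOX, DCN, COL6A3 and THY1). Of all 27852 genes, 2854 lay above and 7017 below in this way. SPARC, a matrix protein of bone, lay at 0.160 to 0.275 CPM in mono-culture and at 0.934 and 0.274 CPM in co-culture. Of the defining collagens of osteoblasts, COL1A1 lay between 4.87 and 6.01 CPM in mono-culture and at 6.68 and 3.72 CPM in co-culture, and COL1A2 was under 0.1 CPM in all 7 libraries. POSTN and THY1 were at 0 in both co-cultures. Among the 7 macrophage markers, TYROBP was at 0 in all 7 libraries, and the list summed to 26.3 to 30.3 CPM in mono-culture and 22.2 to 24.99 CPM in co-culture.

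Of the 13437 genes tested, 712 (5.3%) were higher and 643 (4.79%) were lower in C4-2 with MG63 cells at a Benjamini-Hochberg adjusted p under 0.05 in edgeR's quasi-likelihood test. A change above 2-fold was found for 157 of the higher genes (1.17% of genes tested) and 55 of the lower genes (0.409%). More genes thus rose than fell by over 2-fold. These changes are on the scale of TMM normalization, on which the median log2 fold change of all genes tested was -0.01. When libraries were scaled to their totals alone, the median moved to -0.12 and the split became 466 higher against 1646 lower genes, with 133 and 89 over 2-fold. On the CPM scale, which uses library totals, both co-cultures lay above all 3 mono-cultures for 14.8% of genes and below all 3 for 44.6%, so a lower CPM alone was common. The counts also rested on a library of another line. Replicate 2 of DU145 with MG63 cells entered the shared estimate of the spread, and in a fit without it, chosen after seeing the data, 1704 genes were higher and 1500 lower. With the C4-2 libraries fitted alone the counts were 1741 and 1499. Without replicate 1 of C4-2 with MG63 cells they were 344 and 223, without its replicate 2 they were 357 and 251, and without replicate 2 of the mono-cultures 480 and 418. Against the mono-cultures with RANKL, 627 genes (4.66% of 13451) were higher and 683 (5.08%) lower, with 152 and 107 over 2-fold. Of the 107 named genes that were called against mono-culture, 44 were also called in the same direction against this control, 48 were not called and 15 changed sign. The counts of called list members that follow stand against these shares of all genes, 5.3% higher and 4.79% lower in the first comparison and 4.66% and 5.08% in the second. A gene was tested when any of the 20 libraries reached 100 counts, so a gene that was low in mono-culture could pass through a library in which it was high. Of the 11260 genes that reached 100 counts in a C4-2 mono-culture, 594 were higher and 627 lower, and for lists in which this matters the same counts are given.

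Many of the largest rises were in secreted acute-phase proteins, antiproteases and iron-binding proteins. Of the 23 genes in this list, 12 passed the count minimum, of which 7 were higher (5.3% of all genes were), 1 was lower and 4 were not called. These counts depend on the minimum, since 6 of the 7 higher genes (SERPINA3, LCN2, SAA1, SAA2, CP and PI3) held under 100 counts in every C4-2 mono-culture, and CP and PI3 passed only through the co-cultures of C4-2. Of the 3 members that reached 100 counts in a mono-culture, 1 was higher and 1 lower. Over all 23 members, both co-cultures lay above all 3 mono-cultures in CPM for 11 and below them for 3, beside 2854 and 7017 of all 27852 genes. Against the mono-cultures with RANKL, 7 of the 12 were higher and 0 lower. SERPINA3, a serine protease inhibitor known as alpha-1-antichymotrypsin, lay at 0.974, 1.31 and 0.925 CPM in mono-culture, 142 and 102 CPM in co-culture and 1.17 and 0.354 CPM with RANKL. Both co-cultures were far above all other C4-2 libraries, and the log2 fold change was 6.95 ± 0.25 (SE, adjusted p = 1.52e-10). LCN2, which binds bacterial siderophores and thereby iron, lay at 0.0816, 0.297 and 0.231 CPM in mono-culture, 27.8 and 26.2 CPM in co-culture and 0.253 and 0 CPM with RANKL. It rose by 7.19 ± 0.48 on the log2 scale (adjusted p = 7.39e-07). Its level in the first mono-culture was under that library's detection limit of 0.0893 CPM, so the size of this rise is imprecise.

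The serum amyloid A genes SAA1 and SAA2 rose from almost nothing. SAA1, whose protein circulates on lipoproteins in inflammation, was at 0 in all 3 mono-cultures and in both mono-cultures with RANKL, and at 19.7 and 18.4 CPM in the co-cultures. Against the limit of 3 counts per library this was at least 195-fold higher (adjusted p = 3.22e-07). SAA2 lay at 0.54, 0.194 and 0.229 CPM in mono-culture and 26.3 and 16.9 CPM in co-culture (71.4-fold, adjusted p = 2.23e-08). SAA1 and SAA2 are near-identical copies, so that reads may be divided between them. PI3, the elastase inhibitor elafin, was likewise at 0 in each mono-culture without RANKL and reached 4.83 and 8.65 CPM in co-culture, at least 69.1-fold higher (adjusted p = 3.05e-05). SLPI, a related antiprotease that was named after its values were seen, was expressed by C4-2 alone. It lay at 128, 126 and 126 CPM in mono-culture, 375 and 386 CPM in co-culture and 147 and 122 CPM with RANKL, a rise of 3.25-fold (adjusted p = 0.000227). CP, the copper-carrying ferroxidase ceruloplasmin, rose from 0.324 to 0.567 CPM to 7.41 and 9.22 CPM (21.5-fold, adjusted p = 3.33e-05). The antimicrobial S100A9 subunit of calprotectin was detected in 1 of 3 mono-cultures, at 0.317 CPM, and at 2.62 and 4.97 CPM in the co-cultures (adjusted p = 0.000246).

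The list did not move as a whole. HPX, the heme-binding protein hemopexin (named after its values were seen), fell by 1.53 on the log2 scale (adjusted p = 0.00291). It lay at 4.42 to 5.85 CPM in mono-culture, 1.82 and 1.398 CPM in co-culture and 1.82 and 1.63 CPM with RANKL, and without replicate 2 of the co-cultures its adjusted p was 0.0632. ITIH4, an inter-alpha-inhibitor heavy chain, lay at 2.73 to 4.07 CPM in mono-culture and 2.04 and 2.20 CPM in co-culture and did not pass the test (adjusted p = 0.657). HP, which encodes haptoglobin, stayed under the count minimum at 0.927 to 1.08 CPM in mono-culture and 0.479 and 1.27 CPM in co-culture. LBP, the lipopolysaccharide-binding protein, was also under the minimum and was named after its values were seen. It lay at 0.026 to 0.111 CPM in mono-culture and 1.24 and 1.302 CPM in co-culture (adjusted p = 0.0223 in the fit without a minimum, in which 2.23% of genes were called higher).

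**Figure D1:**
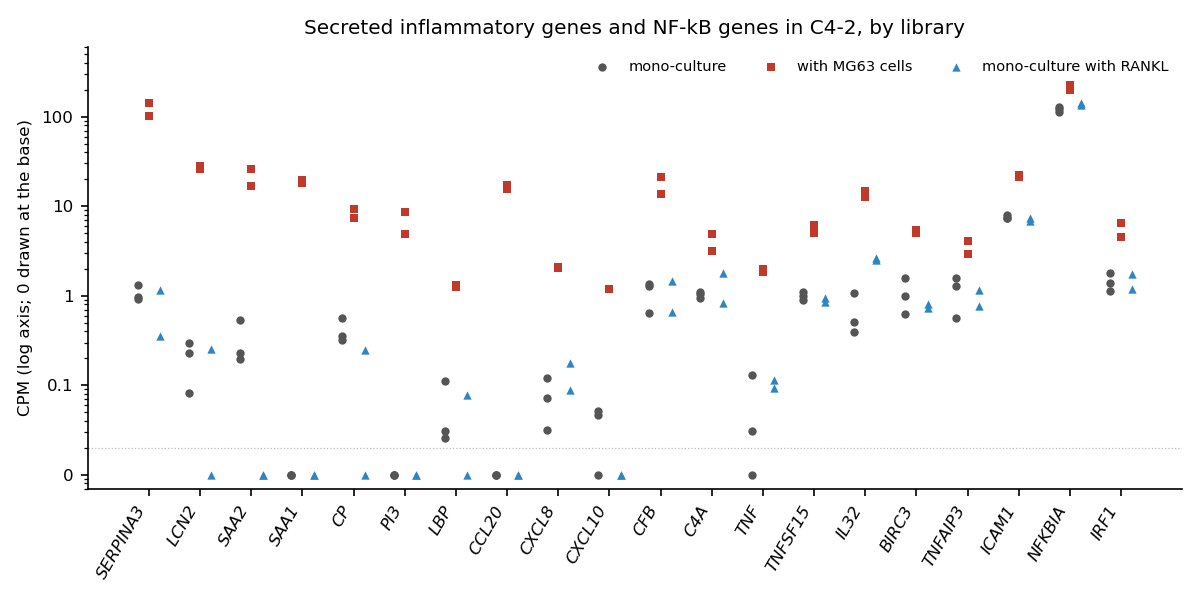
CPM of 20 acute-phase, chemokine, complement, cytokine and NF-kB genes in each C4-2 library, on a log axis with 0 drawn at its base. Circles are the 3 mono-cultures, squares the 2 co-cultures with MG63 cells and triangles the 2 mono-cultures with RANKL. For each gene shown both squares lie above all circles and triangles, for example at 102 and 142 CPM for SERPINA3 and at 1.178 and 1.19 CPM for CXCL10. Members of the same lists that fell or overlapped, such as HPX, CXCL16 and RELA, are not drawn.

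Promoter sequences of 5 of these genes are shown because they belong to the largest rises (CCL20, LCN2, SERPINA3) or to the NF-kB circuit itself (NFKBIA, BIRC3, described later). They are RefSeq windows on GRCh38.p14 from 250 bases before to 50 bases after the transcription start, written 5′ to 3′ on the gene's strand. They lie at chr2:227813592-227813891 (+ strand) for CCL20, chr9:128149203-128149502 (+ strand) for LCN2, chr14:35404700-35404999 (- strand) for NFKBIA, chr11:102317234-102317533 (+ strand) for BIRC3 and chr14:94612141-94612440 (+ strand) for SERPINA3. Capitals mark matches to GGG, any 3 bases and TTCC, or on the other strand GGAA, any 3 bases and CCC, letters that resemble the NF-kB motif.
CCL20: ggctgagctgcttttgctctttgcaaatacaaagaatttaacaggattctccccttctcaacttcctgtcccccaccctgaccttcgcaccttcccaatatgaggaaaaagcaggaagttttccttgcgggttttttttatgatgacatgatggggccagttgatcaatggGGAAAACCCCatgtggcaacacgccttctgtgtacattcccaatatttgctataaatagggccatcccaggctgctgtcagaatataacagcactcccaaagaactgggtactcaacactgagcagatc
LCN2: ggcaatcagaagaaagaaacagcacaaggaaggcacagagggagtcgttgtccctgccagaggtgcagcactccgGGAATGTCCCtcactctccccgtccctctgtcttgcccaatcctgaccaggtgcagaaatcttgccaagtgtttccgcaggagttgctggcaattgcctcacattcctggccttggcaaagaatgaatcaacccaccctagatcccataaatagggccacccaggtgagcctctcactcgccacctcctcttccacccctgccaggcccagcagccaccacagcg
NFKBIA: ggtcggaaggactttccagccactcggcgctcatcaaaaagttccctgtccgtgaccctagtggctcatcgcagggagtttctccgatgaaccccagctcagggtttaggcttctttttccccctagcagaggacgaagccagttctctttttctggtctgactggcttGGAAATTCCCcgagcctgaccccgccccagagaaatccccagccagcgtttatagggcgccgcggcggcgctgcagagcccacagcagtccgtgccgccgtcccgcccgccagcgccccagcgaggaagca
BIRC3: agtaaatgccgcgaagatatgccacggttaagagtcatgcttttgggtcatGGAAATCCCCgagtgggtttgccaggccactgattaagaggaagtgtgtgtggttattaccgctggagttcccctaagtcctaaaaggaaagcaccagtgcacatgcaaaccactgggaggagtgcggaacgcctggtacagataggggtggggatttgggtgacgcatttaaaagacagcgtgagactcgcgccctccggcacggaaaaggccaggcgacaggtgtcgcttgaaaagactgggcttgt
SERPINA3: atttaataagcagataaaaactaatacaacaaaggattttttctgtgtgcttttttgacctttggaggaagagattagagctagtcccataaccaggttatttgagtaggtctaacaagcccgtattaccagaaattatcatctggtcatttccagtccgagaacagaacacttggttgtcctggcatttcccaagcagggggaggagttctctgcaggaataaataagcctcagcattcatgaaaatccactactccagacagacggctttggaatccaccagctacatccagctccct

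The match lay 70 to 79 bases before the start in CCL20, 166 to 175 in LCN2, 72 to 81 in NFKBIA and 190 to 199 in BIRC3, and the SERPINA3 window held none. At least 1 match was present in 7.83% of the 27305 genes with a window and in 10.1% of the 10365 tested genes that had one. Among higher genes it was 82 of 575 with a window (14.3%), among lower genes 58 of 493 (11.8%), and among genes higher by more than 2-fold 19 of 118 (16.1%). In the NF-kB list, which was compiled from known NF-kB targets, 12 of 22 (54.5%) held a match, and in the chemokine list 8 of 18 (44.4%). In the glycolysis and hypoxia list 0 of 22 did, and in the acute-phase list 1 of 14 (7.14%). Of 2 other motifs searched, TTGCNNAA or its reverse complement TTNNGCAA resembles the C/EBP site and was found in 6 of the 14 acute-phase genes (42.9%), beside 10.1% of tested genes. Among genes higher by more than 2-fold it was 9 of 118 (7.63%). TTC, any 3 bases and GAA resembles the STAT site and was found in 3 of them (21.4%), beside 8.62% of tested genes and 13 of the 118 (11.0%). The motifs can overlap. These matches describe letters in the windows and do not show that a factor was bound. The windows of SAA1, SAA2, PI3 and CP were not used here.

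Some chemokines and complement factors rose as well. Of 22 chemokines in the table, 9 passed the minimum, 2 were higher, beside 5.3% of all genes, and 0 lower, and both held under 100 counts in every C4-2 mono-culture. Over all 22, both co-cultures lay above all mono-cultures in CPM for 8 and below them for 1, beside 2854 and 7017 of all 27852 genes. Relative to the RANKL mono-cultures, 2 were higher and 0 lower. CCL20, which attracts lymphocytes through CCR6, was at 0 in all 3 mono-cultures and both mono-cultures with RANKL and at 15.5 and 17.3 CPM in the co-cultures, at least 168-fold higher (adjusted p = 8.65e-07). CXCL8, the neutrophil chemokine interleukin-8, lay at 0.120, 0.0716 and 0.0318 CPM in mono-culture and 2.04 and 2.09 CPM in co-culture (adjusted p = 2.04e-06). Its mono-culture values lay around the detection limit, so no fold is given. CXCL16 was the most abundant chemokine, and its 37.5 to 43.3 CPM in mono-culture overlapped with 36.6 and 43.3 CPM in co-culture. CCL2, the monocyte attractant, was under the minimum and lay at 0 in the mono-cultures and 3.38 and 1.43 CPM in the co-cultures, at least 24.65-fold higher (adjusted p = 0.00825 without a minimum). CXCL10, an interferon-induced chemokine named after its values were seen, lay between 0 and 0.052 CPM in mono-culture and at 1.19 and 1.178 CPM in co-culture (adjusted p = 0.00656 without a minimum).

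Of 13 complement genes tested, 5 were higher, beside 5.3% of all genes, and 0 lower, with a median of 0.42 (3 of the 6 that reached 100 counts in a mono-culture). With the RANKL mono-cultures as control, 2 were higher, beside 4.66% of all genes, and 0 lower, with a median of 0.06. CFB, the protease subunit of the alternative pathway convertase, lay at 1.34, 0.642 and 1.27 CPM in mono-culture, 20.9 and 13.7 CPM in co-culture and 1.47 and 0.655 CPM with RANKL (log2 4.08 ± 0.24, adjusted p = 3.38e-08). It was the only called member with a rise above 2-fold at more than 1 CPM. C4A and C4B, near-identical copies that share reads and that were named after their values were seen, were under the minimum. C4A lay at 0.95 to 1.09 CPM in mono-culture and at 4.90 and 3.12 CPM in co-culture (adjusted p = 0.000963 without a minimum). CLU, the chaperone clusterin, rose by 0.89 on the log2 scale (adjusted p = 0.0037) from 53.5 to 63.0 CPM to 95.1 and 102.5 CPM, but was at 155 and 136 CPM with RANKL. Its adjusted p was 0.0541 without replicate 2 of the co-cultures. SERPING1, the C1 inhibitor, was called at 0.3255 and 0.124 CPM against 0 in the mono-cultures, and lost the call when any of the 5 libraries was left out (adjusted p = 0.0687 to 0.275) and against the mono-cultures with RANKL (0.599). C1RL, a C1r-like protease, rose by 0.42 (adjusted p = 0.0402), which also did not hold without any 1 of the libraries (adjusted p = 0.0799 to 0.277) or with libraries scaled to their totals (adjusted p = 0.105). The membrane regulators CD46 and CD55 were not called (adjusted p = 0.254 and 0.853).

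The NF-kB list rose in part. All 24 members were tested, 12 were higher and 0 lower, beside 5.3% higher among all genes, 3 of those not called had a negative change, and the median was 0.64. Of the 18 that reached 100 counts in a mono-culture, 8 were higher. With RANKL in the control, 10 were higher and 0 lower, with a median of 0.32. Among the subunits, NFKB1 and NFKB2 rose 1.58-fold and 1.47-fold (adjusted p = 1.07e-05 and 0.000534, named after their values were seen). RELA, the transactivating subunit, lay at 53.3 to 58.3 CPM in mono-culture and 49.3 and 55.6 CPM in co-culture and was not called (adjusted p = 1). Of the inhibitors and feedback regulators, NFKBIA and TNFAIP3 are described here, and NFKBIZ and NFKBIE were among those not called (adjusted p = 0.0871 and 0.107). NFKBIA, which encodes the inhibitor IkB-alpha and was named after its values were seen, lay at 121, 112 and 128 CPM in mono-culture, 223 and 196 CPM in co-culture and 141 and 136 CPM with RANKL (1.88-fold, adjusted p = 4.51e-06). TNFAIP3, the deubiquitinase A20, lay at 0.565 to 1.58 CPM in mono-culture and 4.10 and 2.92 CPM in co-culture (log2 1.72 ± 0.38, adjusted p = 0.00814, and 0.118 without replicate 1 of the co-cultures).

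Among the NF-kB targets, BIRC3, an inhibitor of apoptosis, rose from 0.621 to 1.59 CPM to 5.455 and 5.04 CPM (log2 2.44 ± 0.24, adjusted p = 7.61e-06). ICAM1, an adhesion molecule for leukocytes, lay at 7.315, 7.43 and 8.04 CPM in mono-culture, 21.1 and 22.1 CPM in co-culture and 7.44 and 6.745 CPM with RANKL (log2 1.61 ± 0.11, adjusted p = 2.35e-07). IL32, a proinflammatory cytokine, lay at 0.504, 0.396 and 1.085 CPM in mono-culture, 14.9 and 12.7 CPM in co-culture and 2.62 and 2.50 CPM with RANKL (log2 4.465 ± 0.46, adjusted p = 1.37e-05). All 3 genes had both co-cultures above all 5 other libraries. The mitochondrial superoxide dismutase SOD2 and the IkB family member BCL3, both named after their values were seen, rose 1.83-fold and 2.43-fold (adjusted p = 6e-06 and 1.1e-05). The adaptor TRAF2 stayed at 32.0 to 33.4 CPM in mono-culture and 32.2 and 32.8 CPM in co-culture.

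Cytokine and JAK-STAT genes were mixed. Of 32 tested, 7 were higher, beside 5.3% of all genes, and 1 was lower, with a median of 0.05 and a range of -3.72 to 2.77. Of the 18 that reached 100 counts in a mono-culture, 2 were higher and 0 lower. Against the mono-cultures with RANKL 4 were higher and 0 lower. TNFSF10, the death ligand TRAIL, lay at 1.73, 1.19 and 1.96 CPM in mono-culture, 9.87 and 10.8 CPM in co-culture and 3.70 and 4.55 CPM with RANKL (log2 2.77 ± 0.27, adjusted p = 6.51e-06). TNFSF10 passed the minimum only through the co-cultures of C4-2. CSF1, the macrophage growth factor, rose by 1.89 (adjusted p = 0.0015, and 0.0556 without replicate 2 of the co-cultures). SOCS3, a feedback inhibitor of STAT3 signalling, lay at 0 to 0.141 CPM in mono-culture and 0.477 and 0.234 CPM in co-culture and was called at an adjusted p of 0.0256, which was 0.3025 without replicate 1 of the co-cultures. IL11, a cytokine of the IL-6 family, lay at 1.60 to 1.80 CPM in mono-culture and 0.694 and 0.443 CPM in co-culture (adjusted p = 0.0357, and 0.307 without replicate 2 of the co-cultures). CSF1, SOCS3 and IL11 were not called against the mono-cultures with RANKL (adjusted p = 0.0621, 0.0797 and 0.0609). TNF itself, under the minimum and named after its values were seen, was at 0.0305, 0 and 0.129 CPM in mono-culture, 1.85 and 1.97 CPM in co-culture and 0.0934 and 0.116 CPM with RANKL (adjusted p = 0.00447 without a minimum), again with mono-culture values around the detection limit. Its relative TNFSF15, named in the same way, rose from 0.901 to 1.11 CPM to 6.21 and 5.07 CPM (adjusted p = 3.44e-06 without a minimum). The kinase TYK2 was not called (log2 0.07).

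Immediate early genes are the first to be transcribed when a cell is stimulated, and 5 of 11 tested were higher, beside 5.3% of all genes, and 0 lower, with a median of 0.39 (3 of the 8 that reached 100 counts in a mono-culture were higher). With RANKL in the control, 3 were higher and 0 lower, with a median of 0.43. JUNB, a subunit of AP-1, lay at 42.9, 39.7 and 39.0 CPM in mono-culture, 84.0 and 80.8 CPM in co-culture and 45.9 and 48.6 CPM with RANKL (2.19-fold, adjusted p = 3.38e-08). IER3 rose by 0.91 (adjusted p = 2.49e-05), but its 11.4 and 9.16 CPM with RANKL lay near the 10.65 and 11.97 CPM of the co-cultures. EGR1 and FOS, at under 1 CPM in mono-culture, rose by 1.915 and 1.89 (adjusted p = 0.00982 and 0.00504), and without replicate 2 of the co-cultures for EGR1 and replicate 1 for FOS the adjusted p were 0.144 and 0.133. With RANKL in the control the adjusted p of EGR1 and FOS were 0.201 and 0.143. JUND, another AP-1 subunit, was not called (log2 0.21).

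Some interferon-stimulated genes and MHC class I genes were higher as well, and fewer of them against the second control. Of 30 interferon-stimulated genes tested, 14 were higher, beside 5.3% of all genes, and 0 lower, 5 had a negative change, and the median was 0.75. Of the 17 that reached 100 counts in a mono-culture, 8 were higher. Set against mono-cultures with RANKL, 5 were higher, beside 4.66% of all genes, and 1 lower, with a median of 0.34. IRF1, a transcription factor induced by both interferon and NF-kB, lay at 1.37, 1.77 and 1.12 CPM in mono-culture, 6.51 and 4.56 CPM in co-culture and 1.19 and 1.73 CPM with RANKL (log2 2.07 ± 0.20, adjusted p = 6e-06). GBP2, an interferon-induced GTPase, lay at 0.308 to 0.385 CPM in mono-culture and 3.51 and 3.11 CPM in co-culture (log2 3.31, adjusted p = 3.05e-05), but at 3.50 and 2.91 CPM with RANKL. The co-cultures thus lay above the mono-cultures with RANKL for IRF1 and overlapped with them for GBP2. OASL, which acts in antiviral defense, rose by 2.37 (adjusted p = 0.0125) at 0.6155 and 0.664 CPM in co-culture, and its adjusted p was 0.105 without replicate 2 of the co-cultures and 0.155 against the mono-cultures with RANKL. UBD, a ubiquitin-like protein that was named after its values were seen, was at 0 in each mono-culture without RANKL and reached 1.92 and 2.11 CPM in co-culture, at least 20.7-fold higher (adjusted p = 0.0072 without a minimum). TRIM22, an antiviral effector, and USP18, a protease that dampens interferon signalling, were not called (log2 -0.03 for each).

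Of 17 MHC class I genes tested, 11 were higher, beside 5.3% of all genes, and 0 lower, all 17 had a positive change, and the median was 0.66. Of the 14 that reached 100 counts in a mono-culture, 8 were higher. Relative to the RANKL mono-cultures, 4 were higher, beside 4.66% of all genes, and 0 lower, with a median of 0.32. The immunoproteasome subunit PSMB8 lay at 0.864, 0.861 and 1.025 CPM in mono-culture, 4.37 and 3.63 CPM in co-culture and 2.69 and 3.71 CPM with RANKL (log2 2.23 ± 0.31, adjusted p = 0.000202). PSMB9, a second immunoproteasome subunit, rose by 1.92 (adjusted p = 0.0273, and 0.153 without replicate 1 of the co-cultures) and stood at 1.38 and 2.03 CPM with RANKL, beside 2.01 and 1.92 CPM in co-culture. B2M, the light chain of class I molecules, was named after its values were seen. It lay at 319, 342 and 345 CPM in mono-culture, 501 and 496 CPM in co-culture and 448 and 543 CPM with RANKL. HLA-B, a class I heavy chain, lay at 31.1 to 32.3 CPM in mono-culture, 44.7 and 51.1 CPM in co-culture and 31.8 and 32.7 CPM with RANKL (log2 0.70 ± 0.09, adjusted p = 7.26e-05). ERAP2, a peptidase that trims peptides for class I, rose by 0.98 (adjusted p = 0.0375), which reached 0.196 when replicate 2 of the co-cultures was left out and 0.518 against the mono-cultures with RANKL. HLA-C was not called (adjusted p = 0.183), and reads of the HLA genes may be divided between similar copies. The part of depth or RANKL in the levels of PSMB8, PSMB9, B2M and GBP2 was not tested.

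**Figure D2:**
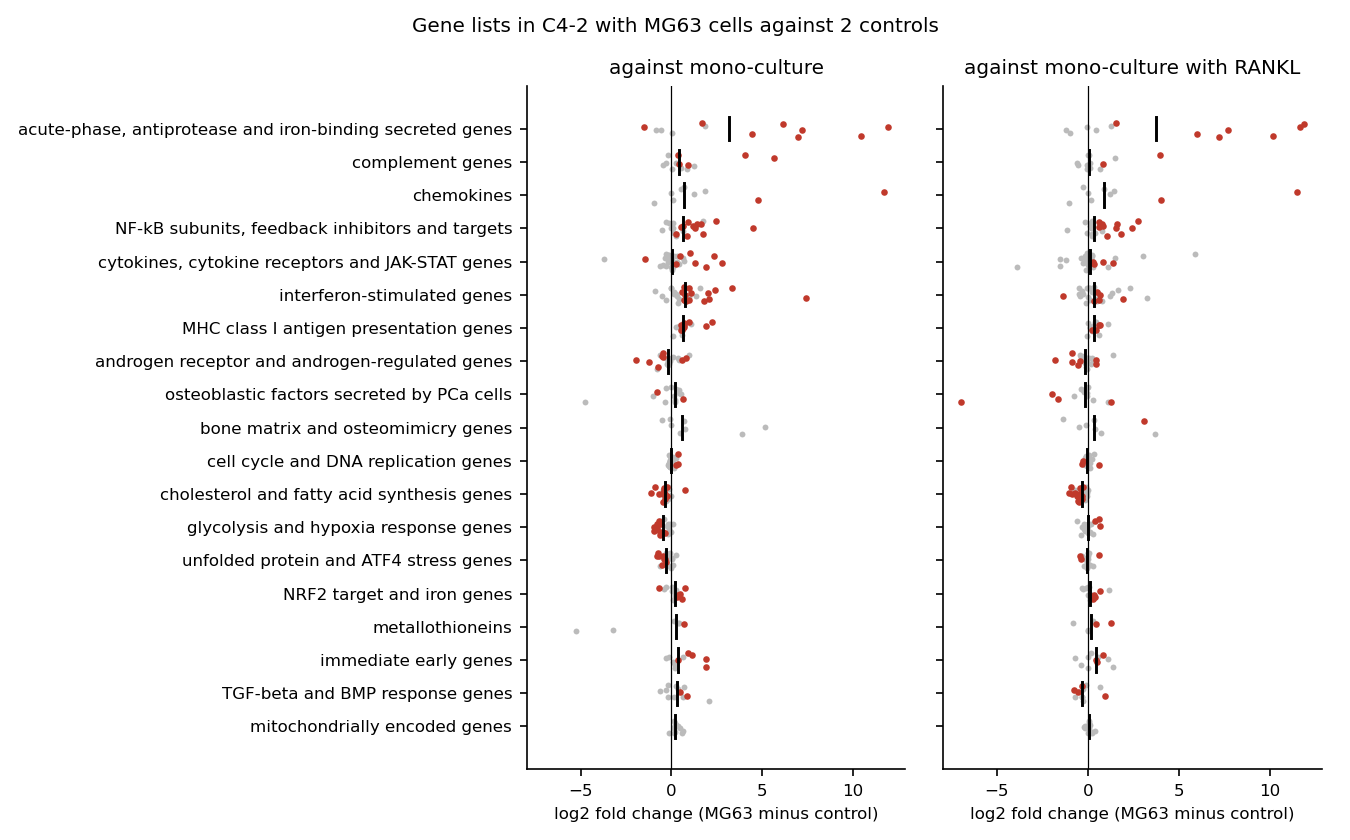
Log2 fold changes of the tested members of 19 gene lists in C4-2 with MG63 cells, against mono-cultures on the left and mono-cultures with RANKL on the right. Red points passed an adjusted p of 0.05, grey points did not, and black bars are medians. The sterol and fatty acid synthesis list has medians of -0.36 and -0.33 against the 2 controls, whereas the glycolysis and hypoxia list has -0.46 and 0.00.

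Some genes of sterol and fatty acid synthesis fell. These genes are driven by SREBP factors when cell cholesterol is low and are silenced when it is plentiful. Of 27 tested, 14 were lower and 1 was higher, beside 4.79% lower among all genes, and 26 had a negative change, with a median of -0.36. With the RANKL mono-cultures as control, 14 were lower and 0 higher, with a median of -0.33. INSIG1, which retains SREBP in the endoplasmic reticulum and is itself a target, lay at 60.2, 55.0 and 67.7 CPM in mono-culture, 23.0 and 28.1 CPM in co-culture and 45.6 and 59.8 CPM with RANKL. It fell by 1.15 ± 0.14 on the log2 scale (adjusted p = 6.52e-05). SCD, the stearoyl-CoA desaturase, lay at 162, 152 and 178 CPM in mono-culture, 82.2 and 80.95 CPM in co-culture and 139 and 180 CPM with RANKL (adjusted p = 0.00186).

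For INSIG1 and SCD both co-cultures were below all 5 other libraries. HMGCS1, a synthase of the mevalonate pathway, was named after its values were seen and fell by 0.42 (adjusted p = 0.0212). Without replicate 1 of the co-cultures the adjusted p of HMGCS1 was 0.140 and without replicate 2 it was 0.112. ELOVL6, a fatty acid elongase, was the member that rose (log2 0.78, adjusted p = 0.00153), and its 8.38 and 9.78 CPM with RANKL were above the 7.70 and 6.99 CPM of the co-cultures. FDFT1, an enzyme of later sterol synthesis, was not called (log2 -0.11).

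Some genes of glycolysis and the hypoxia response were lower than in mono-culture, but none was called lower than in mono-culture with RANKL. Of 21 tested, 11 were lower, beside 4.79% of all genes, 0 were higher and 10 were not called, with a median of -0.46. Compared with mono-cultures with RANKL, 0 were lower and 3 higher, with a median of 0.00. BNIP3, a mitophagy receptor induced by HIF, lay at 310.1, 389 and 366 CPM in mono-culture, 166 and 168 CPM in co-culture and 193 and 174 CPM with RANKL (log2 -0.98 ± 0.17, adjusted p = 0.00176). PDK1, which keeps pyruvate out of mitochondria, lay at 26.35, 31.7 and 26.7 CPM in mono-culture, 13.8 and 16.3 CPM in co-culture and 14.2 and 13.1 CPM with RANKL (adjusted p = 0.00105). LDHA, lactate dehydrogenase A, was named after its values were seen and lay at 1110 to 1309 CPM in mono-culture, 721 and 741 CPM in co-culture and 742 and 725 CPM with RANKL (1.53-fold lower, adjusted p = 0.00139). For these genes it was the mono-cultures without RANKL that stood apart from the other 4 libraries. KDM3A, a histone demethylase induced by HIF, and PFKFB4, a regulator of glycolytic flux, fell by 0.815 and 0.95 (adjusted p = 0.00272 and 0.0183), and that of PFKFB4 was 0.157 without replicate 1 of the co-cultures. With RANKL in the control neither KDM3A nor PFKFB4 was called (adjusted p = 0.269 and 0.818). GAPDH and ENO1, abundant glycolytic enzymes, were not called (log2 -0.12 and -0.03).

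The next list holds genes of the unfolded protein response and genes that ATF4 induces when amino acids are short. Of 19 genes of the unfolded protein and ATF4 list tested, 8 were lower, beside 4.79% of all genes, and 0 higher, with a median of -0.27. Relative to the RANKL mono-cultures, 2 were lower and 1 higher, beside 5.08% and 4.66% of all genes, with a median of -0.02. ASNS, asparagine synthetase, lay at 228, 227 and 222 CPM in mono-culture, 141 and 152 CPM in co-culture and 138 and 137 CPM with RANKL (log2 -0.52 ± 0.07, adjusted p = 0.000169). DDIT4, an inhibitor of mTORC1, lay at 220.5, 275 and 214 CPM in mono-culture, 120.5 and 144 CPM in co-culture and 131.5 and 131 CPM with RANKL (adjusted p = 0.00335, and 0.0862 without replicate 1 of the co-cultures). SESN2, which senses leucine, fell by 0.69 (adjusted p = 0.000329), from 18.4 to 18.7 CPM to 10.6 and 10.8 CPM, and lay between at 15.1 and 13.1 CPM with RANKL (adjusted p = 0.0503 against that control). The lipoprotein receptor VLDLR fell by 0.78 (adjusted p = 0.000922, and 0.290 against the mono-cultures with RANKL). The chaperones HSPA5 and HSP90B1, which report unfolded protein rather than amino acid shortage, were not called (log2 0.11 and -0.10). What separated the mono-cultures without RANKL from the other 4 libraries in ASNS and DDIT4 was not tested, and depth differs along the same line.

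**Figure D3:**
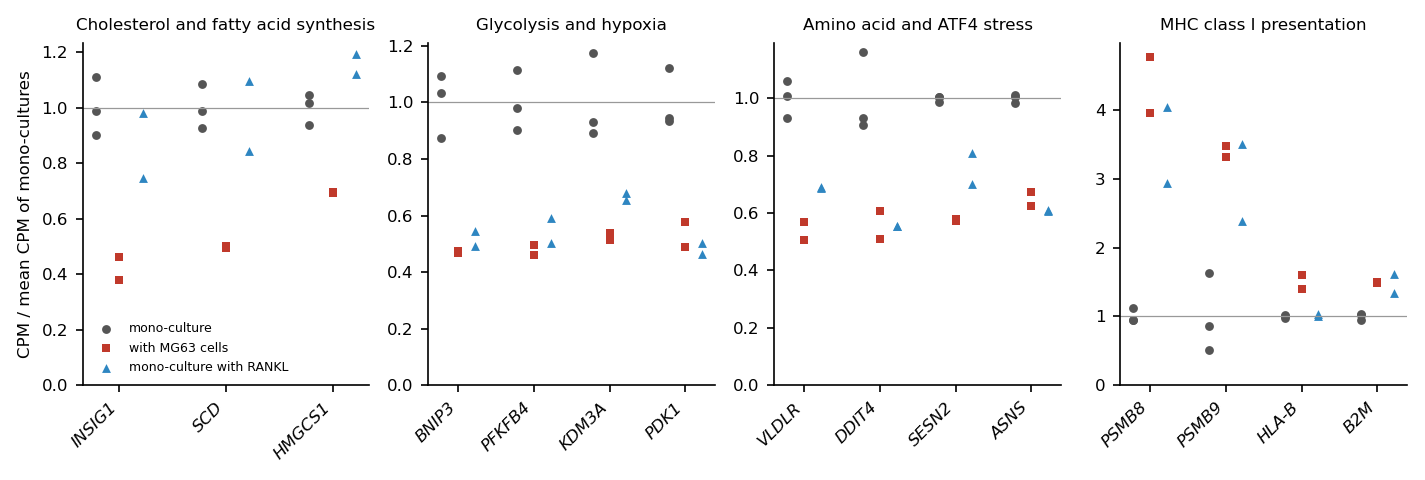
CPM of 15 genes in each C4-2 library divided by the mean CPM of the 3 mono-cultures. Circles are mono-cultures, squares co-cultures with MG63 cells and triangles mono-cultures with RANKL. For SCD and HMGCS1 the triangles lie nearer to the circles than to the squares, whereas for BNIP3, PDK1, ASNS and B2M they lie nearer to the squares, for example BNIP3 with 193 and 174 CPM beside 166 and 168 CPM.

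Androgen-regulated genes were mixed. Of 22 tested, 6 were lower and 2 higher, beside 4.79% and 5.3% of all genes, with a median of -0.18. Compared with mono-cultures with RANKL, 5 were lower and 2 higher, with a median of -0.13. MAF, a transcription factor in the list, lay at 2.75, 2.55 and 3.14 CPM in mono-culture, 0.71 and 0.643 CPM in co-culture and 2.46 and 2.43 CPM with RANKL (log2 -1.94 ± 0.35, adjusted p = 0.00218). NDRG1, an androgen- and hypoxia-induced gene, fell by 1.23 (adjusted p = 6.52e-05) from 179 to 214 CPM to 80.15 and 79.0 CPM and lay between, at 146 and 144.8 CPM, with RANKL. SLC45A3, the prostate transporter prostein, fell from 123 to 135 CPM to 73.5 and 68.1 CPM (adjusted p = 5.84e-05) and was at 74.3 and 78.4 CPM with RANKL. TMPRSS2, a membrane protease, fell by 0.46 (adjusted p = 0.00613, 0.0762 without replicate 2 of the co-cultures and 0.0800 against the mono-cultures with RANKL). TRPM8, a cold-sensing channel, rose by 0.78 (adjusted p = 0.000774) from 82.9 to 105 CPM to 168 and 138 CPM, and stood at 157 and 136 CPM with RANKL. KLK3 and KLK2 were not called (log2 -0.27 and -0.25, adjusted p = 0.0585 and 0.336).

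Secreted factors by which PCa cells are thought to act on osteoblasts were called at a share near that of all genes. The list holds factors of the families that the study names, along with other members of those families. Of 20 genes, 14 passed the minimum, of which 1 was higher and 1 lower, beside 5.3% higher and 4.79% lower among all genes. Against the mono-cultures with RANKL 1 was higher and 3 were lower. IGFBP3, a binding protein of insulin-like growth factors, lay at 44.1, 40.7 and 38.8 CPM in mono-culture and 58.4 and 60.8 CPM in co-culture (log2 0.64 ± 0.08, adjusted p = 9.71e-05), but at 222 and 162 CPM with RANKL, so that its direction was reversed against that control. VEGFA, the endothelial growth factor, lay at 80.6, 94.6 and 87.4 CPM in mono-culture, 45.7 and 48.7 CPM in co-culture and 56.4 and 53.9 CPM with RANKL (log2 -0.78, adjusted p = 0.000144). BMP7 lay at 5.33 to 5.98 CPM in mono-culture, 6.96 and 7.97 CPM in co-culture and 32.0 and 27.7 CPM with RANKL and was not called (adjusted p = 0.081). PDGFA, PDGFB, IGF1, WNT7B, TGFB1, TGFB2, TGFB3, FGF2, BMP2 and PLAU were not called either (adjusted p = 0.0656 to 1). FGF1, EDN1, BMP4, BMP6, WNT1 and WNT5A were under the minimum, at no more than 1.83 CPM in any of the 5 libraries.

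No bone matrix gene was called among 8 tested of 20 (0 higher and 0 lower in edgeR's test). Of the 8, 6 had a positive and 2 a negative change, with a median of 0.61, and 0.35 against the mono-cultures with RANKL. At an unadjusted p under 0.05, ALPL, COL5A1, DKK1 and RUNX2 had p values of 0.0442, 0.04475, 0.0208 and 0.00889. Of the 13437 genes tested, 1551 were higher and 1624 lower at that threshold. COL5A1, a fibrillar collagen, lay at 4.06, 3.71 and 3.79 CPM in mono-culture, 6.01 and 5.74 CPM in co-culture and 0.57 and 0.8055 CPM with RANKL (log2 0.71 ± 0.32, adjusted p = 0.199). Both co-cultures were above all mono-cultures, but the difference did not pass the test. It did against the mono-cultures with RANKL (log2 3.07, adjusted p = 0.000192), where COL5A1 was the 1 bone matrix gene called higher and 0 were lower. Of 9 mesenchymal markers tested, 1 was higher and 1 lower, and 2 and 1 against the mono-cultures with RANKL. FN1 rose 2.70-fold (adjusted p = 3.38e-08) and TAGLN fell by 0.75 (adjusted p = 0.0116, a call lost without replicate 2 of the co-cultures). VIM and CALD1 were not called. Against the mono-cultures with RANKL, at 8.61 and 6.45 CPM, VIM was called higher (log2 1.58, adjusted p = 1.06e-06). Of 12 luminal markers, 0 were higher and 2 lower, and 2 and 3 against that control. No macrophage marker was called against either.

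Proliferation genes were close to level. Of 28 cell cycle genes tested, 3 were higher, beside 5.3% of all genes, and 0 lower, with a median of -0.02 and a range of -0.16 to 0.35. Set against mono-cultures with RANKL, 1 was higher and 2 were lower, with a median of -0.05. CDKN1A, the cyclin-dependent kinase inhibitor p21, lay at 54.6 to 58.2 CPM in mono-culture and 68.1 and 65.7 CPM in co-culture (log2 0.35, adjusted p = 0.0062), but at 85.1 and 84.9 CPM with RANKL. Its adjusted p was 0.0641 without replicate 1 of the co-cultures. CCNE1 and CDK1, which drive entry into S phase and mitosis, rose by 0.35 and 0.23 (adjusted p = 0.0375 and 0.0145), and neither was called when libraries were scaled to their totals (adjusted p = 0.1045 and 0.119) or without replicate 2 of the co-cultures (0.191 and 0.110). Compared with mono-cultures with RANKL, CCNE1 was not called (adjusted p = 0.0563) and CDK1 was. CCNB1 and PCNA were not called (log2 -0.02 and 0.02).

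Iron and redox genes rose in part. Of 14 NRF2 target and iron genes, 5 were higher and 1 lower, beside 5.3% and 4.79% of all genes, with a median of 0.18. With the RANKL mono-cultures as control, 4 were higher and 0 lower, with a median of 0.11. FTH1, the ferritin heavy chain that stores iron, lay at 2597 to 2639 CPM in mono-culture, 3520 and 3867 CPM in co-culture and 3016 and 3264 CPM with RANKL (1.52-fold, adjusted p = 2.01e-05). FTL, the light chain, rose by 0.46 (adjusted p = 0.00239, and 0.0556 without replicate 2 of the co-cultures) and lay at 384 and 414 CPM in co-culture beside 370 and 389 CPM with RANKL (adjusted p = 0.627 against that control). The cystine transporter SLC7A11 fell by 0.68 (adjusted p = 0.000922, and 0.0770 against the mono-cultures with RANKL), and the NRF2 targets NQO1 and TXNRD1 were not called. MT2A, a zinc-binding metallothionein, was the only member of 6 tested that was called (log2 0.67, adjusted p = 0.000961), while MT1X and MT1F were not called. In the comparison with RANKL, 2 metallothioneins were higher and 0 lower. Of 12 TGF-beta and BMP response genes tested, 2 were higher, beside 5.3% of all genes, and 0 lower, with a median of 0.32. The median changed sign with the second control, against which 1 was higher and 3 were lower, with a median of -0.31. BAMBI, a decoy receptor of the TGF-beta family, lay at 68.2, 64.1 and 64.2 CPM in mono-culture, 112 and 106 CPM in co-culture and 58.1 and 56.5 CPM with RANKL (1.80-fold, adjusted p = 6.7e-06). ID1, a BMP target, rose by 0.48 (adjusted p = 0.0367) and lost the call without any 1 of the 5 libraries (adjusted p = 0.0606 to 0.344) and with libraries scaled to their totals (0.0805). ID1 lay at 136 and 111 CPM in co-culture but at 198 and 168 CPM with RANKL, so that its direction turned against that control (log2 -0.55, adjusted p = 0.0298), and ID2 and ID3 were not called. None of the 13 mitochondrially encoded genes was called (0 in edgeR's test against either control, median 0.20 against mono-culture).

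Other genes among the largest rises were low in level. The pseudogene SNX18P7 was at 0.366 and 0.347 CPM in co-culture only. DDX58, the viral RNA sensor RIG-I, was at 0 in the mono-cultures and 0.659 and 1.04 CPM in co-culture, at least 8.71-fold higher. Relative to the RANKL mono-cultures, neither SNX18P7 nor DDX58 was called (adjusted p = 0.0619 and 0.123). PLAAT4, a retinoid- and interferon-induced phospholipase, rose from 0 to 0.102 CPM to 2.67 and 1.83 CPM (adjusted p = 0.000828) and lay at 0.820 and 0.873 CPM with RANKL. It was not called against that control either (adjusted p = 0.197).

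Pseudogenes and a read-through transcript were among the largest falls, and their reads may be divided with the genes they resemble. The pseudogenes GCSHP5 and DHFRP1 and the read-through transcript ST20-MTHFS were at 0 in both co-cultures, at least 114-fold, 31.4-fold and 27.6-fold lower than in mono-culture. DHFRP1 was also at 0 in both mono-cultures with RANKL. Without replicate 2 of the co-cultures the adjusted p was 0.146 for GCSHP5 and 0.183 for DHFRP1. PPFIA4, a liprin of the presynaptic scaffold that hypoxia induces, lay at 8.45, 11.0 and 10.1 CPM in mono-culture, 0.991 and 1.26 CPM in co-culture and 2.40 and 0.886 CPM with RANKL (log2 -3.03 ± 0.44, adjusted p = 0.000324). RPL10, a ribosomal protein with many processed copies, fell from 26.2 to 57.9 CPM to 6.17 and 5.17 CPM and lay at 8.69 and 7.31 CPM with RANKL. It was also called lower with MG63 cells in C4-2B, DU145 and 22Rv1 (log2 -2.635, -3.85 and -5.395). The remaining falls among the 10 largest were low in level. TUBB4A, C2orf27AP3, CDH17, SCAMP1 and GRPR lay under 8 CPM in every library, and each lost its call when a co-culture was left out (adjusted p up to 0.159, 0.144, 0.25, 0.274 and 0.241). GCSHP5, ST20-MTHFS, TUBB4A, CDH17 and SCAMP1 were not called against the mono-cultures with RANKL (adjusted p = 0.262, 0.0714, 0.304, 0.188 and 0.210), nor were PPFIA4, RPL10 and DHFRP1 (adjusted p = 0.675, 0.6905 and 1).

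The other osteoblastic line, C4-2B, which was derived from C4-2 in bone, was cultured in the same way and gave an independent set of libraries, in which depth again differed along with culture. In C4-2B, 473 genes were higher (3.52%) and 523 lower (3.89%) with MG63 cells. Of these, 304 higher genes were also higher in C4-2, which is 42.7% of the genes higher in C4-2 and 64.3% of those higher in C4-2B. For lower genes the shared 275 were 42.8% and 52.6%. The change with MG63 cells differed between the lines, by a test of the difference itself, for 24 of 13437 genes (0.179%), 13 with a higher and 11 with a lower value in C4-2. Without replicate 2 of DU145 with MG63 cells the number was 115, and without replicate 1 of C4-2 with MG63 cells it was 1. Among the lists, 0 of 12 acute-phase genes and 1 of 24 NF-kB genes differed.

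SERPINA3 and LCN2 changed by 6.50 and 8.23 on the log2 scale in C4-2B, beside 6.95 and 7.19 in C4-2 (adjusted p of the difference = 1 for both). The NF-kB gene that differed was NFKBIA, which rose by 0.91 in C4-2 and by 0.21 in C4-2B (difference 0.70 ± 0.12, adjusted p = 0.0254). HMOX1, the heme-degrading enzyme, rose by 0.76 in C4-2 from 19.4 to 20.4 CPM to 32.1 and 30.3 CPM and changed by -0.02 in C4-2B (adjusted p of the difference = 0.00764), while the mono-cultures of C4-2 with RANKL lay at 33.1 and 34.5 CPM. AKR1C1, a hydroxysteroid reductase that shares reads with its close paralogs, lay at 0.1535 to 0.314 CPM in mono-culture, 1.93 and 3.27 CPM in co-culture and 0.0389 and 0.0454 CPM with RANKL, and the difference between the lines was 4.66 ± 0.68 (adjusted p = 0.00764). CYP11A1, the side-chain cleavage enzyme that starts steroid synthesis, rose by 2.04 in C4-2 and 0.29 in C4-2B (adjusted p of the difference = 0.0422), and stood at 15.3 and 23.5 CPM with RANKL beside 16.7 and 11.4 CPM in co-culture. S100P, a calcium-binding protein, fell in C4-2 from 34.9 to 40.65 CPM to 13.7 and 19.3 CPM and lay at 28.3 and 19.4 CPM with RANKL (adjusted p = 0.186 against that control). S100P rose by 0.60 in C4-2B (difference -1.645 ± 0.22, adjusted p = 0.00764). DDX58 and NCLP1, a pseudogene, complete the 5 largest differences that include AKR1C1, CYP11A1 and S100P, and both were at under 2 CPM in C4-2.

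The following genes were named after their values were seen. Among those with the larger rise in C4-2, the transcription factor SOX9 lay at 6.57, 6.14 and 6.36 CPM in mono-culture, 14.9 and 13.8 CPM in co-culture and 6.56 and 8.07 CPM with RANKL (log2 1.28 in C4-2 and 0.33 in C4-2B, adjusted p of the difference = 0.00746). CYP1A1, a target of the aryl hydrocarbon receptor, lay at 9.59 to 9.89 CPM in mono-culture, 46.7 and 41.9 CPM in co-culture and 8.17 and 8.08 CPM with RANKL (2.29 and 1.28, adjusted p of the difference = 0.0422). RGS2, a regulator of G protein signalling, and PGC, the protease progastricsin, rose by 1.36 and 1.55 in C4-2 and changed by 0.04 and 0.06 in C4-2B. The actin-binding tropomyosin TPM4 rose by 0.74 against -0.04, but lay at 159 and 153 CPM with RANKL beside 194 and 167 CPM in co-culture (adjusted p = 0.113 against that control). The mono-cultures of C4-2B started from higher levels of SOX9, TPM4 and HMOX1, with means of 13.3, 153 and 29.99 CPM beside 6.36, 116 and 19.9 CPM in those of C4-2 and 14.35, 180 and 31.2 CPM in the co-cultures of C4-2. Their means were also higher for PGC and CYP11A1, at 31.98 and 7.46 CPM beside 18.46 and 3.67 CPM in C4-2. For RGS2 and CYP1A1 they were lower, at 15.46 and 7.70 CPM beside 17.77 and 9.735 CPM.

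Of 19 tested members of the unfolded protein and ATF4 list 2 differed, ASNS and SESN2, with changes of -0.52 and -0.69 in C4-2 and 0.08 and 0.06 in C4-2B (adjusted p of the difference = 0.019 and 0.0422). Outside the list and named after their values were seen, the mitochondrial enzyme PCK2, the amino acid transporter SLC1A4, the glycyl-tRNA synthetase GARS1 and NIBAN1 changed by -0.58, -0.56, -0.27 and -0.97 in C4-2 and by 0.32, 0.22, 0.18 and 0.04 in C4-2B. None of these 4 was called against the mono-cultures with RANKL, with changes of -0.13, 0.04, -0.09 and -0.31 (adjusted p = 0.504, 0.939, 0.363 and 0.280). The glycolysis and hypoxia list had 16 of 21 members lower in C4-2B, beside 11 in C4-2, and 0 differed between the lines.

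**Figure D4:**
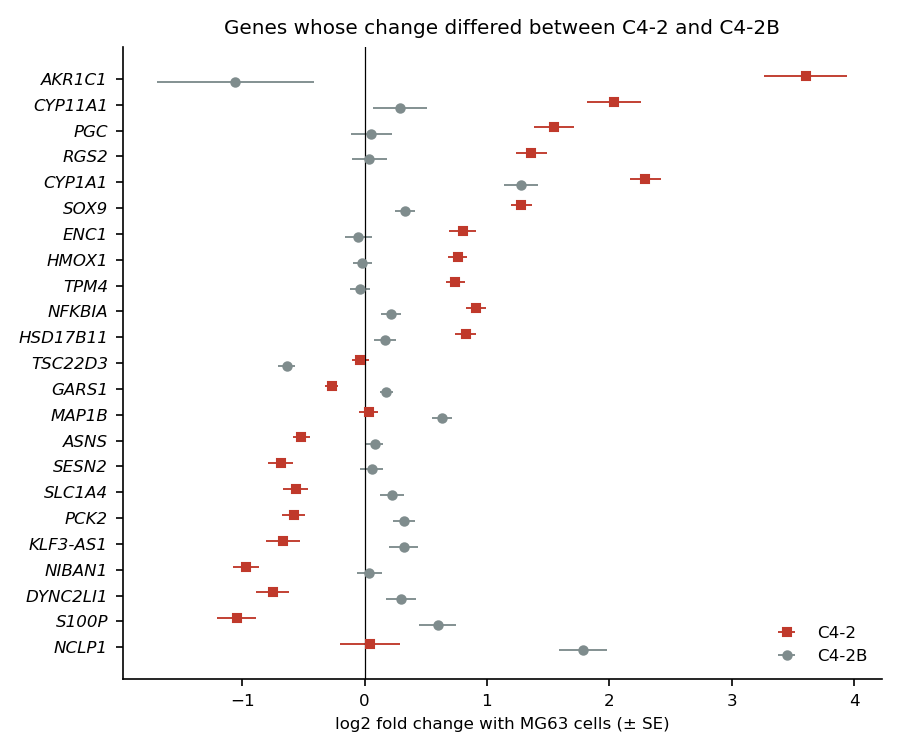
Log2 fold change with MG63 cells, with its SE, for 23 of the 24 genes whose change differed between C4-2 (squares) and C4-2B (circles) at an adjusted p under 0.05. DDX58, at under 2 CPM in both lines, is left out. AKR1C1 lies at 3.61 in C4-2 and -1.06 in C4-2B, and S100P at -1.045 and 0.60.

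Against the osteolytic lines the change in C4-2 differed for 1294 genes in DU145 (9.63%) and 639 in 22Rv1 (4.76%). For the acute-phase list, 5 of 12 genes differed between C4-2 and DU145 and 3 between C4-2 and 22Rv1. In DU145, in which 15.2% of genes were higher and 15.3% lower, 5 members rose, and in 22Rv1, with 11.2% higher and 9.18% lower, 0 did. SERPINA3 changed by 1.57 in DU145 and 1.91 in 22Rv1 (adjusted p of the difference from C4-2 = 0.0729 and 0.123), and LCN2 by 3.75 and 4.52 (0.0138 and 0.957). Of these 4 differences only that of LCN2 from DU145 passed the test. Within those lines the change of SERPINA3 was not called (adjusted p = 0.461 in DU145 and 0.3475 in 22Rv1), and that of LCN2 was called in DU145 (0.000123) and not in 22Rv1 (0.2455). Some NF-kB genes were called higher in each line, with 14 of 24 higher in DU145 and 5 in 22Rv1, beside 12 in C4-2, and 7 differed from each osteolytic line. The glycolysis and hypoxia list moved the other way in DU145, where 9 of 21 were higher and 0 lower, and 10 differed from C4-2. Of 27 sterol and fatty acid synthesis genes, 19 were lower in DU145 and 12 in 22Rv1, beside 14 in C4-2. Without replicate 2 of DU145 with MG63 cells, 1081 and 2095 genes differed from DU145 and 22Rv1. Without replicate 1 of C4-2 with MG63 cells the numbers were 411 and 261, and without its replicate 2 they were 634 and 385.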

How the data were processed

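RNA of the PCa cells was sequenced as poly-A selected, strand-specific libraries on DNBSEQ-G400. The deposited values are estimated counts per Ensembl transcript that the authors made with kallisto; the labels name hg19 as the build. For this report, 159837 transcripts (161149 lines, of which 2491 repeated a transcript) were summed per gene symbol to 27852 genes and rounded, and 6878 transcripts without a symbol (0.526 to 0.764% of counts) were left out of tests. All 36 columns were mapped to samples by name. A gene was kept when any of the 20 libraries without RANKL held 100 counts or more, and the test was the quasi-likelihood F test of edgeR 4.0.16 after TMM normalization, with 1 mean per line and culture, in R 4.3.3; p-values were Benjamini-Hochberg adjusted over all 13437 genes tested. The fit with mono-cultures with RANKL used 28 libraries. The procedure was tested on simulated data. Differences between lines were tested as interaction contrasts. Alternatives were DESeq2 1.42.0, other scalings and filters, a replicate block and leaving out libraries. Figures were drawn with matplotlib 3.10.9.

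The comparison and the gene lists were chosen with earlier results of these data known. Named genes were the 15 largest rises and 10 largest falls called with no overlap between groups, SERPINA3, LCN2, COL5A1, the osteoblastic factors, up to 4 called and 2 uncalled members of each list, and the 5 largest differences from C4-2B. A further 36 genes were named after their values were seen. Some genes that these rules name are not reported here. Totals per library set the precision, which for genes under 1 CPM is a few counts.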

Additional observations from a re-analysis of the deposited data

Results flagged for a closer look

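The change with MG63 cells differed between C4-2 and C4-2B by the test of the difference itself in the following named genes, given as the log2 fold change in C4-2 minus that in C4-2B: DDX58 13.24, SESN2 -0.7439, ASNS -0.5991, HMOX1 0.7813, AKR1C1 4.663, CYP11A1 1.747, NCLP1 -1.742, S100P -1.645, NFKBIA 0.6958, SOX9 0.951, RGS2 1.324, PGC 1.492, CYP1A1 1.014, TPM4 0.7801, NIBAN1 -1.011, PCK2 -0.902, SLC1A4 -0.7852, GARS1 -0.4442 and DYNC2LI1 -1.047. The value of DDX58 is a fitted one from libraries at 0 and is no measure of size. Of the named genes, 73 differed in the same test from DU145 and 57 from 22Rv1. Without replicate 1 of C4-2 with MG63 cells, 1 gene in all differed from C4-2B. Depth differed along with culture in both lines, which cannot be told apart.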

How the results depend on the processing

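The counts of called genes depended on the fit. Beside 712 higher and 643 lower genes, 157 and 55 of them over 2-fold, and 24, 1294 and 639 genes that differed from C4-2B, DU145 and 22Rv1, the counts moved by over 1.5 times as follows. Without a count minimum 12 genes differed from C4-2B and 411 from 22Rv1. With libraries scaled to their totals 466 were higher, 1646 lower and 89 over 2-fold lower. DESeq2 gave 1076 higher genes and 89, 2079 and 1014 that differed. The C4-2 libraries alone gave 1741 higher, 1499 lower and 86 over 2-fold higher. Against the mono-cultures with RANKL 107 were over 2-fold lower and 640, 3023 and 1387 differed, and without a minimum 470 were higher, 109 over 2-fold lower and 436, 2389 and 1067 differed. An unadjusted p under 0.05 with a 2-fold change gave 245 higher and 106 lower genes. When 1 C4-2 library was left out, 344 to 508 were higher, 223 to 459 lower, 101 to 137 and 32 to 50 over 2-fold higher and lower, and 1 to 19, 411 to 828 and 261 to 449 differed. Without replicate 2 of DU145 with MG63 cells, an alternative chosen after seeing the data like the RANKL control without a minimum, these were 1704, 1500, 201, 72, 115, 1081 and 2095.

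The correlation of same-numbered deviations was -0.0195 and -0.0118 in C4-2. The deviations of 2 co-cultures mirror each other, so these values cannot tell whether replicate numbers pair the samples. With a replicate block across lines 600 genes were higher and 541 lower and 18, 1080 and 501 differed, and with a replicate block within lines 146 and 67 were called, 83 and 15 over 2-fold, and 0, 4 and 6 differed.

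With the RANKL mono-cultures as control the log2 fold change changed sign for PDGFA -0.042, FGF2 -0.26, BMP7 -1.97, TGFB1 1.13, TGFB3 -0.37, IGFBP3 -1.67, WNT7B -0.072, KLK2 0.46, CALD1 -0.23, CD68 0.13, ITIH4 0.42, CLU -0.54, CD46 0.015, CD55 -0.037, USP18 0.0073, COL1A1 -0.12, CDKN1A -0.32, PCNA -0.020, ELOVL6 -0.28, PDK1 0.16, ENO1 0.089, DDIT4 0.030, ASNS 0.11, HMOX1 -0.093, ID1 -0.55, ID3 -0.34, ID2 -0.28, CYP11A1 -0.44, IL4R -0.056, LDHA 0.018, HK2 0.40, PSAT1 0.00026 and SLC1A4 0.039. With that control and no minimum the log2 fold change changed sign for EDN1 -0.26, BMP6 -0.22 and WNT5A 2.46. With libraries scaled to their totals the log2 fold change changed sign for CALD1 -0.032, PTPRC -0.11, CD55 -0.060, CXCL16 -0.019, RELA -0.11, TRAF2 -0.010, TYK2 -0.036, COL1A1 -0.10, PCNA -0.093, NQO1 -0.091, TXNRD1 -0.045 and NCLP1 -0.065. Without a count minimum the log2 fold change changed sign for PTPRC -0.014, RELA -0.016, COL1A1 -0.012 and PCNA -0.00045. With edgeR's own filter the log2 fold change changed sign for PTPRC -0.034, RELA -0.036, COL1A1 -0.032, PCNA -0.021 and NQO1 -0.019. With a replicate block within lines the log2 fold change changed sign for PTPRC -0.0055, RELA -0.042, TRIM22 0.027, COL1A1 -0.12 and NCLP1 -0.022. With a replicate block across lines the log2 fold change changed sign for RELA -0.00082, COL1A1 -0.047 and NCLP1 -0.029. With RLE size factors the log2 fold change changed sign for CCNB1 0.00012. With DESeq2 the log2 fold change changed sign for CCNB1 0.00024. When 1 C4-2 library was left out, the values of genes that changed sign ranged as follows, namely PTPRC -0.12 to 0.12, CD55 -0.055 to 0.16, CXCL16 -0.046 to 0.22, RELA -0.098 to 0.10, TYK2 -0.021 to 0.17, TRIM22 -0.14 to 0.033, USP18 -0.055 to 0.012, COL1A1 -0.46 to 0.37, CCNB1 -0.036 to 0.0075, PCNA -0.0078 to 0.049, NQO1 -0.013 to 0.058, MT1F -0.061 to 0.67 and NCLP1 -0.17 to 0.23. The cause was not tested. Of 107 called named genes, RLE size factors kept all 107 calls, a replicate block within lines kept 58, and the mono-cultures with RANKL as control kept 44. Depth limits statements on genes under 1 CPM, and groups of 2 and 3 libraries allow no outlier test.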
